A study of Mus musculus with 6 samples.

Results

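The genes of the Wnt pathway were examined in mouse corneal keratocytes, the resident cells of the corneal stroma, after ablation of the Hedgehog receptor gene Ptch1. Members were chosen by symbol: the Wnt, Fzd, Sfrp, Dkk and Rspo families and a fixed list of co-receptors, secreted inhibitors, and cytoplasmic and nuclear effectors. The table of 17606 genes held 53 of them.

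Keratocytes had been sorted by flow cytometry from the corneas of Prrx1-creERT;Ptch1 mice and ctrl mice, both 10 weeks old, that had received 3 doses of tamoxifen and were followed for 1 month. Each group had 3 libraries of bulk RNA. The knock-in CreERT is driven by Prrx1 and deletes floxed Ptch1 in corneal keratocytes, but per the study it also recombines in corneal endothelium and other mesenchyme of the eye. The methods call the 3 libraries biological replicates, but which alleles the ctrl mice carried and whether a library came from 1 mouse or from a pool is not given, so the p-values measure the spread between these libraries only.

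Wnt ligands are secreted lipid-modified proteins that bind Frizzled receptors. With the co-receptors Lrp5 and Lrp6 they stabilise beta-catenin (Ctnnb1), which enters the nucleus and switches on genes through Tcf and Lef factors, while other Wnt proteins, such as Wnt5a and Wnt11, are best known for signalling through Ror and Frizzled receptors without beta-catenin. Several beta-catenin targets, among them Axin2, Nkd1, Notum, Znrf3 and Lef1, are themselves parts of the pathway, and in the cornea the antagonist Dkk2 is known for keeping the surface epithelium corneal rather than skin-like.

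Libraries held 20258414 to 24788039 counts and detected 14331 to 15645 genes. Control replicate 1 and ablated replicate 2 lay apart from the other libraries of their groups on the second principal component (18.8% of the variance). The targeted gene Ptch1 was counted 172, 104 and 369 times in controls and 4348, 5194 and 6230 times in the libraries labelled ablated, a whole-gene total that cannot show loss of the floxed part, while the Hedgehog target Gli1 went from 1, 20 and 36 to 3022, 3042 and 3098 counts. Keratocyte markers were abundant in all 6 libraries, Kera (keratocan) reaching 5006 to 17140 TPM, but 5 of 6 tested were lower after ablation (summed TPM 42483 to 47017 against 61245 to 64888 in controls), and Ptgds, not tested, had 0, 6 and 0 counts in controls and 39, 1 and 30 after ablation. Most of these markers were also examined by the study in the same samples, so their count is not independent evidence. TPM, transcripts per 1000000, is a level per transcript length and serves here to compare genes with each other.

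Markers of other cells moved too, and their part in every Wnt result below was not tested. Of 8 tested epithelial markers 4 were lower (Krt4, Krt5, Krt14, Krt15) and Krt12, at 0 in all 3 controls, was higher, with Pax6 and Trp63 at or near 0 throughout and summed TPM of 92.7 to 114 in controls and 5.73 to 14.0 after ablation. Vascular endothelium had 3 of 6 markers higher (279 to 367 against 436 to 469.8 summed TPM), mural cells 3 of 7 (464 to 534 against 899 to 957) and Schwann cells 1 of 5 (124 to 141 against 184 to 200.03). Kdr, the most abundant vascular marker, did not rise, at 160, 194 and 230 TPM in controls and 161, 183 and 168 after ablation. Its log2 change was -0.40, not called. The mural marker Acta2 (76.3 to 89.2 TPM in controls, 239 to 267 after ablation) is listed by the study as a fibroblast marker. Corneal endothelium had 1 of 5 lower (Aqp1), with sums of 5619 to 6458 in controls against 3593 to 3994. By qPCR of isolated corneal endothelium, the study found no significant change of Aqp1 after Ptch1 deletion. Without Aqp1 the other 4 summed to 386 to 442 and 304 to 505, and Slc4a11 among them had 20, 174 and 100 counts in controls and 511, 346 and 650 after ablation (adjusted p = 0.0541). Leukocyte sums overlapped, with 1 of 7 markers higher, and 0 of 3 melanocyte markers were called, Mlana and Dct being at or near 0. Of 3 tested Y-linked genes 1, Ddx3y, was lower, with 140, 200 and 298 counts in controls against 76, 59 and 56, while Uty (adjusted p = 0.965) and Eif2s3y (0.648) overlapped between groups. The deposited counts of Uty and Eif2s3y were not whole in any of the 6 libraries, as where reads match several genes, while all those of Ddx3y were whole. Kdm5d, not tested, had 0, 16 and 0 counts in controls and 16, 0 and 1 after ablation. In bulk RNA, fewer cells of a type and less RNA per cell cannot be told apart.

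Of the 53 members, 43 had at least 10 counts in at least 3 libraries and were tested, in a fit over all 13888 genes that passed the low-count filter. With the threshold set at 0.05 on the Benjamini-Hochberg adjusted p from edgeR's quasi-likelihood test, 12 of the 43 (27.9%) were called, against a background of 8.48% of all tested genes. Higher in Ptch1-ablated keratocytes were 7 members, Wnt2, Fzd1, Dkk3, Nkd1, Nkd2, Lef1 and Tcf7l2 (background 4.68%), and lower were 5, Wnt5a, Wnt11, Dkk2, Sfrp2 and Notum (background 3.8%). Scaling mattered for the genome-wide split of the calls, since 55.2% of them were higher in this fit but 72.5% with library totals alone and 72.8% on TPM, which raised the median log2 change of all genes from 0.005 to between 0.17 and 0.22. None of the 12 members changed direction or left the list under those scalings. Leaving out control replicate 1 removed Notum from the called members (adjusted p = 0.0696), and leaving out ablated replicate 2 removed none. The median log2 change of the 43 members was 0.10, beside 0.005 for all tested genes. In 20 of the 43 (46.5%) the CPM of the groups did not overlap, 12 higher and 8 lower after ablation, against a background of 27.4%.

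**Figure D1:**
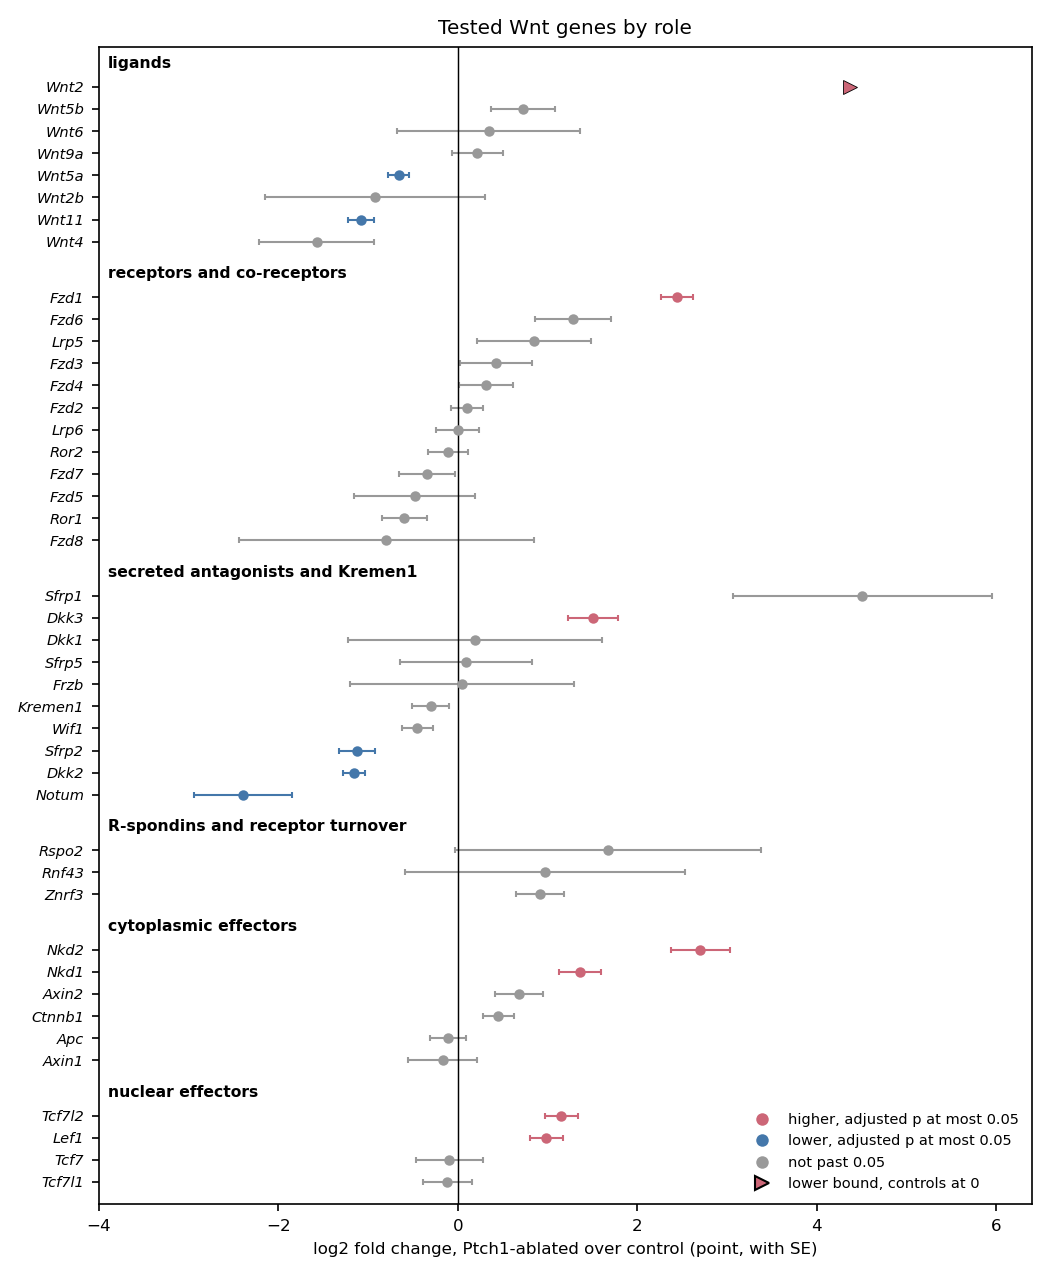
Log2 fold change of the 43 tested Wnt genes (x axis, Ptch1-ablated over control, with its standard error), grouped by role; Wnt2, at 0 in every control library, is drawn at its lower bound. Red marks the 7 genes higher and blue the 5 lower past the threshold, and 4 of the 7 red points are cytoplasmic or nuclear effectors while all 5 blue points are ligands or secreted antagonists.

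Promoter windows from RefSeq (assembly GRCm38.p6, the 250 bases before a start site) were found for 33 of the 53 members and for 9 of the 12 that were called, but not for Dkk3, Notum or Wnt5a. Those of the 2 called members with the largest rises from a detected control level (Fzd1, Nkd2) and of 2 secreted members that fell, the ligand Wnt11 and the antagonist Dkk2, are shown 5′ to 3′ on the strand of the gene, with the TCF/LEF core CTTTGA in capitals wherever either strand held it, here read as its complement TCAAAG.
Fzd1: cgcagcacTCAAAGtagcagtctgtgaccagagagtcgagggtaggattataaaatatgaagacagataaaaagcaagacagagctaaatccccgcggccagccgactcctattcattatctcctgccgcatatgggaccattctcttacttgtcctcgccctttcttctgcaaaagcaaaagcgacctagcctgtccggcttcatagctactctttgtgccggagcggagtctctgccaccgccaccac
Nkd2: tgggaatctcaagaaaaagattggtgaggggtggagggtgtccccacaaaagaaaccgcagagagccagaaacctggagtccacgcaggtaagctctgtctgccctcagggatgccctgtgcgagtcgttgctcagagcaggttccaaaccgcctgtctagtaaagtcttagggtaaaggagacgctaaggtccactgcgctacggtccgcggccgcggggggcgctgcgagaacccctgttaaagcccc
Wnt11: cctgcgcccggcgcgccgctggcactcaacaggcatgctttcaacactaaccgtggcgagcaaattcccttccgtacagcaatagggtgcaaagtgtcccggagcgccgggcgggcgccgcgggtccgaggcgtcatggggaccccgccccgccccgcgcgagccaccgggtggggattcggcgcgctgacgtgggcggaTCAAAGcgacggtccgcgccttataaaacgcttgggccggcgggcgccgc
Dkk2: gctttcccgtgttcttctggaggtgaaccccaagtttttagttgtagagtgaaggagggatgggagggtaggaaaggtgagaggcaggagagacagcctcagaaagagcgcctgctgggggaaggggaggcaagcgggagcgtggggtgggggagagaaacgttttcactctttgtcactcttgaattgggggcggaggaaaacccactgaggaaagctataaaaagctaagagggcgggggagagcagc
The windows lie at chr5:4758217-4758466 on the minus strand (Fzd1), chr13:73847632-73847881 on the minus strand (Nkd2), chr7:98834862-98835111 on the plus strand (Wnt11, the first of its 2 listed starts) and chr3:132085042-132085291 on the plus strand (Dkk2). None overlaps an annotated GENCODE exon, and the start used for Fzd1 lies outside the GENCODE transcripts of the gene. The core began 242 bases before the start in Fzd1 and 50 bases before it in Wnt11, and Nkd2 and Dkk2 had none. The window of the other Wnt11 start, which is not shown, had none either. Within these 250 bases, the core was found in 7 of 43 windows belonging to members (16.3%), among them 2 of 10 of members that rose and 1 of 4 of members that fell. It was found in 13.8% of all 32851 windows in the table. The Gli consensus GACCACCCA was found in 0 of 43 and in 0.225%. GC content was 51.2% in the Fzd1 window, 58.4% in Nkd2, 55.6% in Dkk2 and 70.8% in Wnt11, where the median over all windows was 52.4%.

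Both abundant Wnt ligands were lower after Ptch1 ablation, and Wnt2 was counted in the ablated libraries only. Wnt5a was the most abundant ligand in controls at 647 ± 83.2 TPM (SD, n = 3; rank 176 of all genes), followed by Wnt11 at 371 ± 27.9 TPM (rank 329), and then by Wnt9a at 18.6 TPM. In CPM (counts per 1000000, scaled between libraries by TMM), Wnt5a measured 1365, 1571 and 1671 in controls and 954, 1056 and 911 in ablated libraries. The groups did not overlap, and the 1.58-fold fall (log2 change -0.66 ± 0.12 SE) passed the test at adjusted p = 0.00394. For Wnt11 the controls gave 343, 338 and 288 CPM and the ablated libraries 134, 149.6 and 175. All 3 ablated libraries lay well under the lowest control, a 2.11-fold fall (log2 -1.08 ± 0.15, adjusted p = 0.000609).

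Wnt2, a ligand of the beta-catenin pathway, had no counts in any control library and 56, 128 and 49 counts after ablation. That is 2.39, 5.43 and 1.97 CPM, on average at least 20.7-fold higher than the highest level that a count of 0 allows in a control (3 counts, 0.158 CPM), with adjusted p = 0.00618, and at least 13.8-fold without ablated replicate 2 (adjusted p = 0.0388). At 4.50 ± 3.00 TPM it remained a small part of the ligand pool. Wnt9a did not pass the test, at 17.2, 35.9 and 33.1 CPM in controls and 35.6, 29.2 and 35.4 after ablation (log2 0.22 ± 0.28, adjusted p = 0.745), and without control replicate 1 its sign changed (-0.05). Wnt4 was singled out after its values were seen, because its adjusted p was at most 0.2. Its groups did not overlap, at 4.17, 7.57 and 4.59 CPM in controls and 1.92, 1.27 and 2.29 after ablation (log2 -1.57 ± 0.64, adjusted p = 0.182). None of its 6 expected counts was whole, as happens where RSEM splits reads that match several genes. Wnt5b, Wnt6 and Wnt2b did not pass either, at mean levels of at most 16.9 TPM in either group. The 5 ligands not tested, Wnt1, Wnt3, Wnt8a, Wnt10a and Wnt16, had between 0 and 17 counts in each library.

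**Figure D2:**
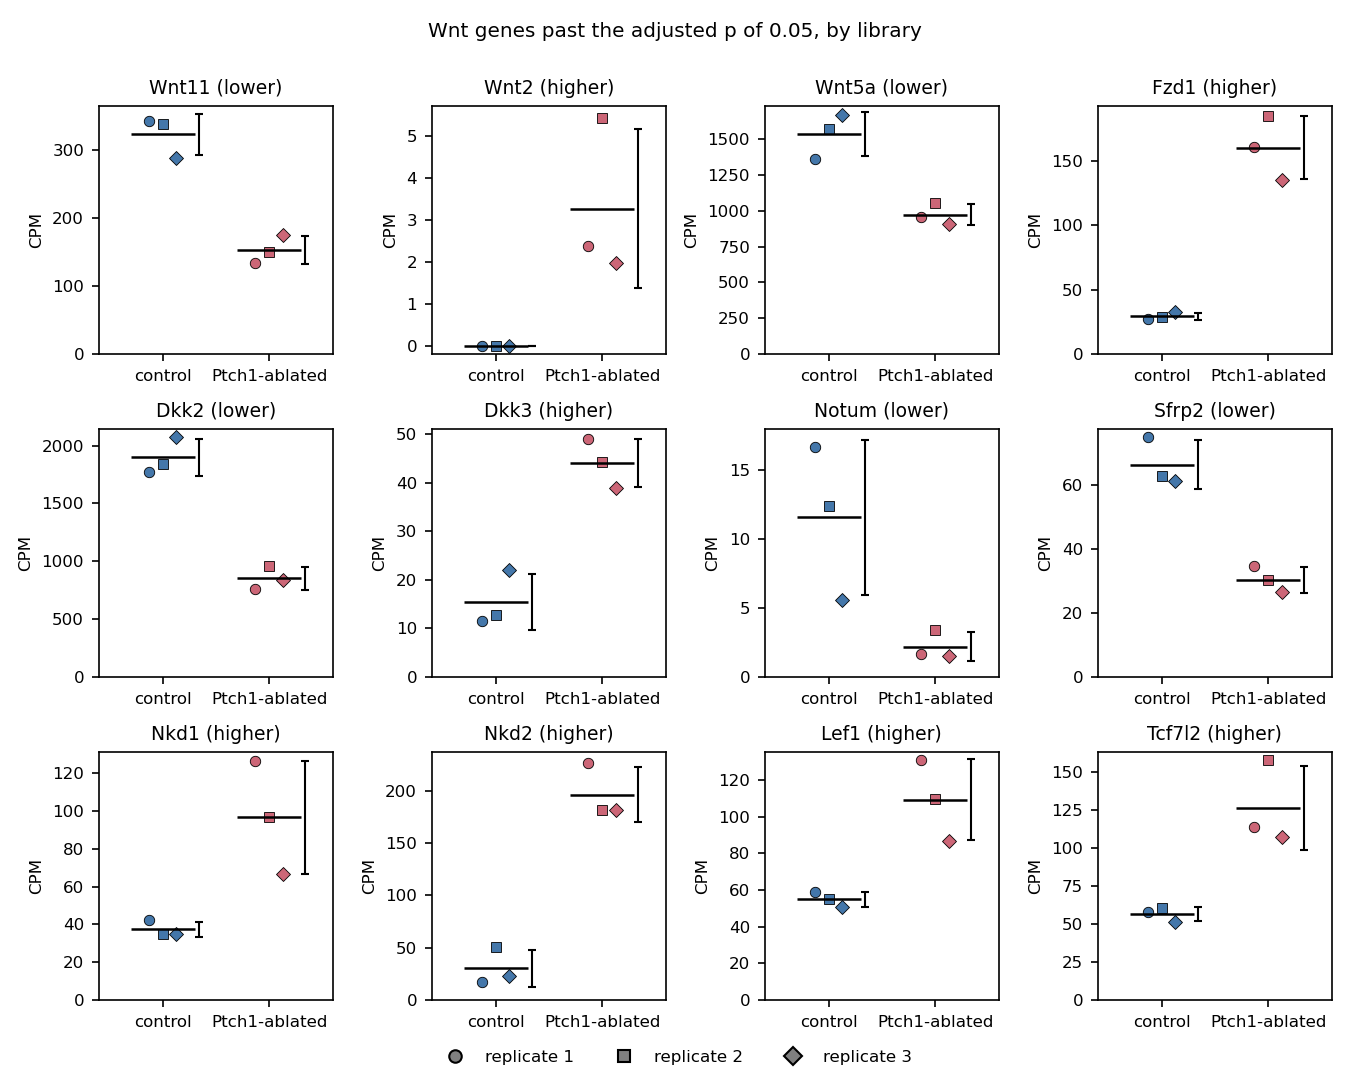
CPM (y axis, scaled by TMM) of the 12 Wnt genes called, with 1 point per library, marker shape giving the replicate number, a line at the group mean and a bar of 1 SD. In all 12 panels the 3 ablated libraries lie on one side of the 3 controls; relative to its level Wnt5a comes closest, with 1365 CPM in the lowest control and 1056 in the highest ablated library.

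Among receptors, Fzd1 rose and no other member passed the test, 1 of 12 tested (8.33%), a share like the background of 8.48%. Fzd1 measured 26.9, 28.9 and 32.4 CPM in controls and 160.5, 184.5 and 135.5 in ablated libraries. Every ablated library lay far above every control, and the 5.45-fold rise (log2 2.45 ± 0.18) had adjusted p = 4.86e-06. Fzd2, the most abundant Frizzled in controls, differed little at 41.1, 43.6 and 43.1 CPM against 47.5, 44.2 and 45.7 (log2 0.10 ± 0.18, adjusted p = 0.824), although its groups did not overlap. Ror2, a Wnt5a receptor kinase, measured 36.6, 36.5 and 42.1 CPM in controls and 36.4, 43.2 and 27.2 after ablation (adjusted p = 0.858), and its small negative log2 change of -0.11 ± 0.23 turned positive with library totals alone, on TPM and without ablated replicate 3.

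The remaining receptors were of low or middling level. Fzd6 and Ror1 were looked at after their values were seen, because their adjusted p was at most 0.2. For both, the groups did not overlap. Fzd6 gave 3.67, 8.41 and 11.6 CPM in controls and 15.6, 26.0 and 16.3 after ablation (log2 1.29 ± 0.42, adjusted p = 0.091). It passed with DESeq2 (adjusted p = 0.0353), with library totals alone (0.0459) and with limma on log2(TPM + 1) (0.0476). It did not pass on log2(TPM + 0.1) (0.0643) or in any fit that left out a library. Ror1, a relative of Ror2, measured 26.5, 30.6 and 28.9 CPM against 20.4, 22.1 and 14.4 (log2 -0.60 ± 0.25, adjusted p = 0.199). For the co-receptors Lrp6 (adjusted p = 0.999) and Lrp5 and for Fzd3, Fzd4, Fzd5, Fzd7 and Fzd8 the groups overlapped and adjusted p was at least 0.518. Fzd10 was not tested, with 0 to 38 counts in a library. Of the 6 expected counts of Fzd4, 4 were not whole.

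The secreted antagonists held 3 of the 5 members that fell, and Dkk2 among them was the most abundant Wnt gene measured. Dkk2, which binds Lrp5 and Lrp6, measured 1774, 1843 and 2077 CPM in controls and 763, 956 and 837 after ablation. Every ablated library lay below every control, and the fall was 2.23-fold (log2 -1.16 ± 0.12, adjusted p = 7.1e-05). Its level per length went from 1090.0 ± 115 to 568 ± 90.3 TPM (n = 3 each), from rank 97 to rank 198 among all genes. Sfrp2, which binds Wnt proteins through a Frizzled-like domain, measured 75.0, 62.8 and 61.1 CPM in controls and 34.6, 30.3 and 26.4 after ablation, a 2.18-fold fall (log2 -1.12 ± 0.20, adjusted p = 0.00362). Wif1, another Wnt-binding inhibitor, had groups that did not overlap, at 92.0, 100.5 and 127 CPM against 83.1, 74.8 and 75.9, but the difference missed the threshold (log2 -0.45 ± 0.17, adjusted p = 0.151).

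Notum, an esterase that strips the lipid from Wnt proteins and is itself a beta-catenin target, fell 5.26-fold (log2 -2.40 ± 0.55, adjusted p = 0.0168) with a wide spread in controls, which gave 16.7, 12.4 and 5.60 CPM against 1.66, 3.40 and 1.53 after ablation. Its call was lost when control replicate 1 (adjusted p = 0.0696), control replicate 2 (0.0664), ablated replicate 1 (0.0725) or ablated replicate 3 (0.0776) was left out, with log2 changes from -2.85 to -2.03 over all 6 such fits. Dkk3, a divergent Dkk family member, moved the other way. It measured 11.5, 12.8 and 22.1 CPM in controls and 49.0, 44.2 and 39.0 after ablation, a 2.85-fold rise (log2 1.51 ± 0.28, adjusted p = 0.005). Of 10 antagonists tested, counting the Dkk receptor Kremen1 with them, 4 were called (40%, against a background of 8.48%).

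Sfrp1, examined after its values were seen, had 0, 7 and 1 counts in controls and 41, 160 and 24 after ablation, so the groups did not overlap. The log2 change of 4.51 ± 1.44 missed the threshold (adjusted p = 0.0816) and rested on few counts: it was called by DESeq2 (adjusted p = 0.00621) and without control replicate 2 (log2 6.85, adjusted p = 0.0485), whereas without ablated replicate 2 the log2 change was 3.29 (adjusted p = 0.362) and over the other 4 fits that left out a library adjusted p lay between 0.111 and 0.177. Kremen1, Frzb, Sfrp5 and Dkk1 overlapped between groups, with adjusted p between 0.464 and 0.992. Sfrp4 and Dkk4 were not tested, with at most 16 counts in a library.

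R-spondins raise Wnt receptor levels by keeping the ubiquitin ligases Znrf3 and Rnf43 from removing Frizzled, and 0 of the 3 tested members of this group passed. Znrf3 came closest. It measured 22.7, 23.4 and 18.6 CPM in controls and 37.8, 55.7 and 29.3 after ablation, without overlap (log2 0.92 ± 0.27, adjusted p = 0.0552). It passed with DESeq2 (adjusted p = 0.0148), with library totals alone (0.0259), without the low-count filter (0.042) and without ablated replicate 3 (0.0436). Rnf43 was counted 0, 78 and 25 times in controls and 114, 0 and 132 times after ablation, a spread within each group as wide as the levels themselves (adjusted p = 0.803). Rspo1 was counted 0, 0 and 11 times in controls and 8, 9 and 3 times after ablation and was not tested. Rspo2 and Rspo3 had between 0 and 28 counts in every library, and of these Rspo2 was tested (adjusted p = 0.657).

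Of 6 cytoplasmic members, Nkd1 and Nkd2 rose and 4 were not called (33.3% called, background 8.48%). Both encode Dishevelled-binding proteins that restrain Wnt signalling, and Nkd1 is a known beta-catenin target. Nkd2 measured 17.6, 50.35 and 22.6 CPM in controls and 226, 181 and 181 after ablation. Even the highest control, replicate 2, lay far below the ablated libraries, and the rise was 6.52-fold (log2 2.71 ± 0.33, adjusted p = 0.000235), or 3.29 on the log2 scale without that control. In TPM it went from 15.9 ± 9.13 to 120.0 ± 15.4 (n = 3 each). The pseudogene Gm8062, annotated on the opposite strand within Nkd2, had 10 to 32 counts per library, against 383 to 5314 for Nkd2. Nkd1 measured 42.1, 35.2 and 35.0 CPM in controls and 126, 96.5 and 66.8 after ablation, a 2.58-fold rise (log2 1.37 ± 0.23, adjusted p = 0.00276).

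Ctnnb1 itself, the most abundant cytoplasmic member in controls at 70.9 TPM, measured 126, 115 and 103 CPM there and 174, 124 and 172 after ablation. The groups overlapped, and the log2 change of 0.45 ± 0.17 missed the threshold (adjusted p = 0.151). It passed with library totals alone (log2 0.61) and on TPM (log2 0.65). Axin2, a scaffold of the beta-catenin destruction complex and a widely used target gene, was singled out after its values were seen. It gave 16.7, 15.6 and 13.0 CPM in controls and 21.5, 29.7 and 21.5 after ablation without overlap, but its log2 change of 0.68 ± 0.27 was not called (adjusted p = 0.16), nor under any alternative tried (0.0745 to 0.398). The other destruction-complex genes, Axin1 and Apc, overlapped between groups with adjusted p of 0.874 and 0.837.

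Among the nuclear factors, Tcf7l2 and Lef1 rose and Tcf7l1 and Tcf7 were not called (50% called, background 8.48%). In controls Lef1, Tcf7l1 and Tcf7l2 stood close together at 32.3 ± 2.02, 30.4 and 28.9 ± 1.86 TPM, with Tcf7 at 7.62 TPM. Tcf7l2 measured 58.1, 60.3 and 51.5 CPM in controls and 113.5, 158 and 107 after ablation, a 2.23-fold rise (log2 1.16 ± 0.19, adjusted p = 0.002). Lef1, also a beta-catenin target, measured 59.2, 55.1 and 50.8 CPM in controls and 131, 110.0 and 86.7 after ablation, a rise of 1.99-fold (log2 0.99 ± 0.19, adjusted p = 0.00577). For both, the lowest ablated library exceeded the highest control. Tcf7l1, known chiefly as a repressor, measured 54.3, 43.4 and 25.2 CPM against 42.0, 36.5 and 35.0 (log2 -0.12 ± 0.27, adjusted p = 0.877), with a sign that turned positive on TPM, with library totals alone and without control replicate 1. Tcf7 had overlapping groups as well (adjusted p = 0.936). As with Wnt4, none of the 6 expected counts of Tcf7l1 or of Tcf7 was whole.

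Transcripts were also summed per length within a role. These sums are of TPM, which carries the upward shift of all genes given above, and they were not tested. Ligand transcripts summed to 977, 1072 and 1104 TPM in controls and 675, 785 and 677 after ablation, and Wnt5a with Wnt11 made up 96.9 ± 0.617% and 92.9 ± 0.692% of them (n = 3 each). Taken alone, the share of Wnt5a (61.4 ± 4.25% and 64.4 ± 3.12%) and that of Wnt11 (35.5 ± 4.69% and 28.6 ± 3.78%) overlapped between groups. Secreted antagonists without Kremen1 summed to 1299 ± 131 TPM in controls and 742 ± 96.4 after ablation, with Dkk2 supplying 83.9 ± 0.641% and 76.3 ± 2.85%. For these 2 sums, the combined Wnt5a and Wnt11 share and the Dkk2 share, the groups did not overlap.

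Frizzled transcripts summed to 56.2, 65.2 and 67.6 TPM in controls and 158, 184 and 131 after ablation. Fzd1 supplied 22.7, 21.1 and 23.6% of that sum in controls and 55.8, 59.2 and 55.5% after ablation, whereas the share of Fzd2 was 39.9 ± 2.17% in controls and 20.1 ± 2.76% after ablation (n = 3 each). The most abundant Frizzled transcript was therefore Fzd2 in every control library and Fzd1 in every ablated library. The 4 nuclear factors summed to 99.3 ± 14.8 and 189.8 ± 33.8 TPM. Of these sums Tcf7l2 made up 29.4 ± 3.20% in controls and 39.5 ± 5.46% after ablation without overlap, Tcf7l1 30.03 ± 6.39% and 17.3 ± 2.39%, also without overlap, and Lef1 32.9 ± 3.38% and 39.5 ± 4.93%, with overlap.

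**Figure D3:**
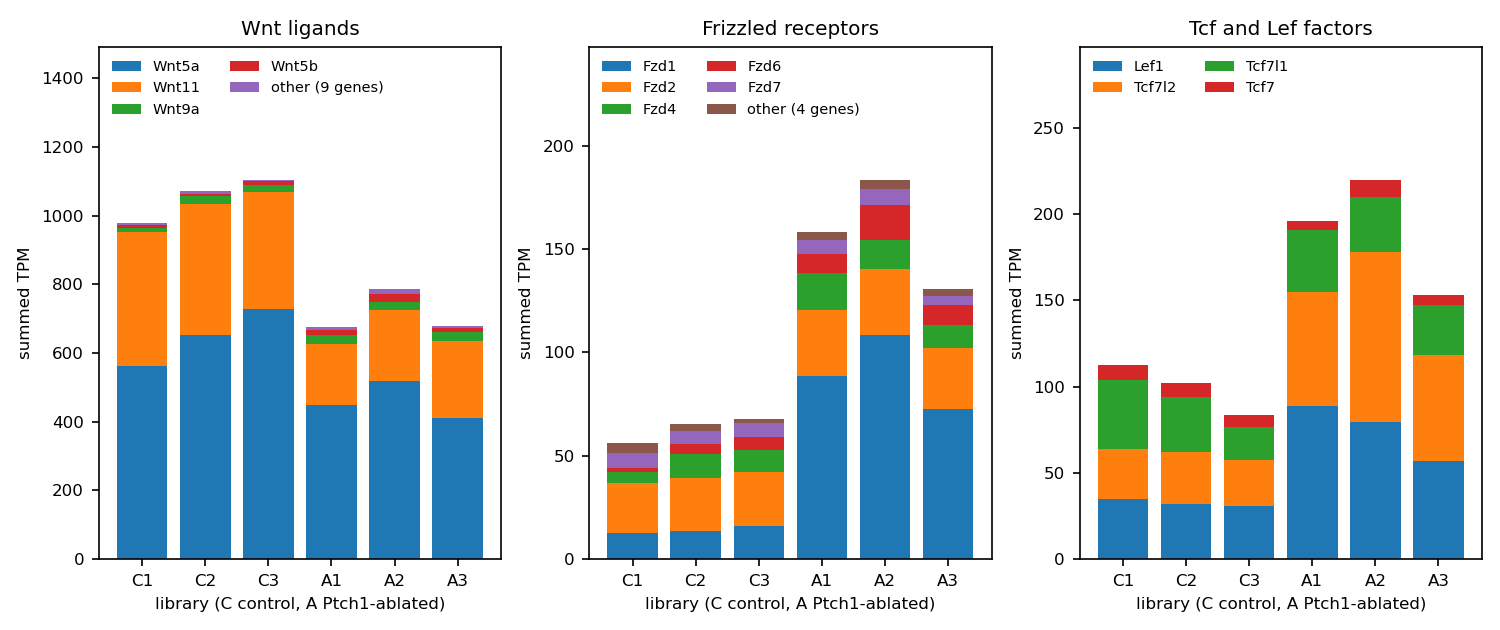
Summed TPM (y axis) in each library (x axis; C1 to C3 control, A1 to A3 Ptch1-ablated) of the Wnt ligands, the Frizzled receptors and the Tcf and Lef factors, stacked by gene. The ligand bars are shorter in all 3 ablated libraries, and the Frizzled bars taller, with Fzd1 going from 22.5% to 56.8% of the stack on average.

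Genes that beta-catenin is known to induce moved in both directions. The table held 16 such genes, and 15 were tested, of which 5 were higher (Nkd1, Lef1, Myc, Tnfrsf19, Ccn4), 2 were lower (Notum, Cd44) and 8 were not called. That is 46.7% called, against a background of 8.48% of all tested genes. In 11 of the 15 (73.3%) the groups did not overlap, 9 of them higher, against a background of 27.4%. The growth regulator Myc measured 17.8, 15.5 and 21.4 CPM in controls and 82.9, 88.3 and 69.9 after ablation, a 4.40-fold rise (log2 2.14 ± 0.21, adjusted p = 4.24e-05). Tnfrsf19, a receptor of the tumour necrosis factor family, rose 1.63-fold (adjusted p = 0.00834). Ccn4, a matricellular protein, was at log2 0.73 ± 0.20 with adjusted p = 0.045, and its call was lost in each of the 6 fits that left out a library (adjusted p 0.059 to 0.193). The hyaluronan receptor Cd44 fell by 0.71 on the log2 scale (SE 0.14, adjusted p = 0.00609), but not past the threshold on TPM (0.0555 and 0.0584). Of the targets not called, Sp5 had groups without overlap but at most 2.72 CPM in a library (adjusted p = 0.271), and Ccnd1 gave 12.2 ± 3.66 CPM in controls and 22.2 ± 5.36 after ablation (n = 3 each, adjusted p = 0.145).

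**Figure D4:**
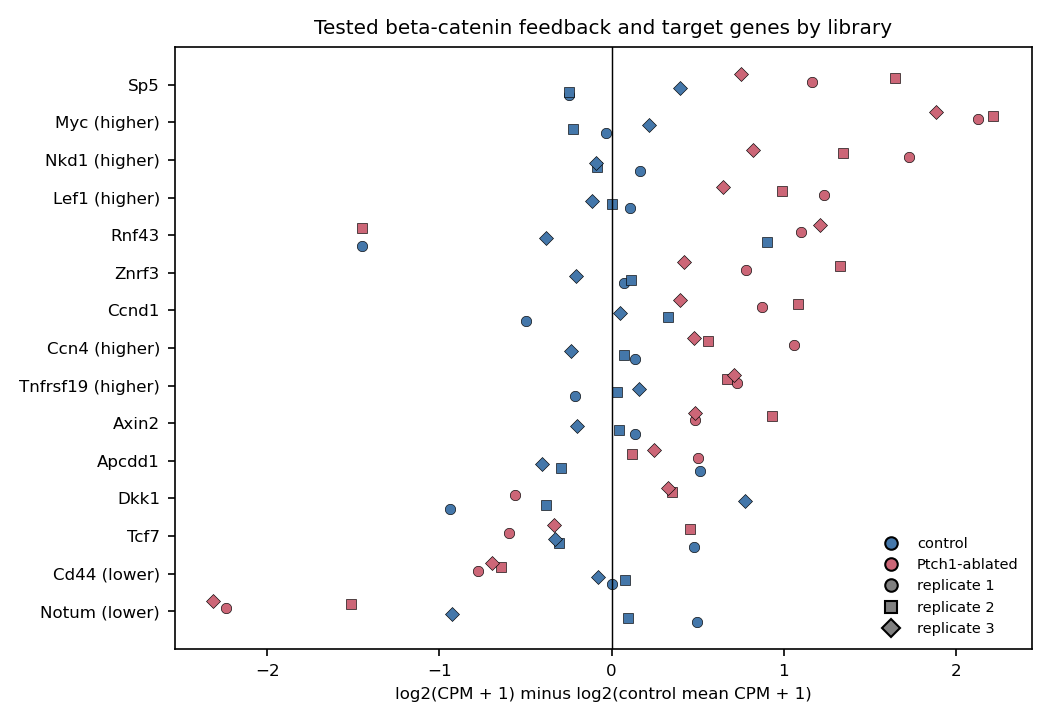
Level of the 15 tested beta-catenin feedback and target genes in each library, as log2(CPM + 1) minus that of the control mean (x axis), with colour for the group and marker shape for the replicate number. Myc, Nkd1 and Lef1 lie to the right of all controls in the 3 ablated libraries and Notum and Cd44 to the left, while Rnf43, Apcdd1, Dkk1 and Tcf7 overlap.

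Outside the 53 members, 61 other genes of the pathway were in the table and 55 were tested, of which 8 were higher and 2 lower (18.2% called, against a background of 8.48%). They include the target genes above that are no members, of which 7 were tested and 4 called (Myc, Tnfrsf19, Ccn4 and Cd44). R-spondin receptors and surface modulators held 4 of the 8 higher, out of 9 tested (44.4%). Lgr4, an R-spondin receptor, measured 21.4, 16.5 and 23.5 CPM in controls and 126, 173 and 119 after ablation, a 6.82-fold rise (log2 2.77 ± 0.22, adjusted p = 7.22e-06), while its relatives Lgr5 (at most 7 counts in a library) and Lgr6 (0, 0 and 1 counts in controls, 28, 4 and 17 after ablation) were not tested. Sostdc1, a secreted inhibitor of Wnt and BMP signals, measured 5.55, 9.41 and 4.90 CPM in controls and 27.6, 23.9 and 23.1 after ablation (log2 1.91 ± 0.33, adjusted p = 0.00312). Cthrc1, a secreted glycoprotein that binds Wnt receptor complexes, rose 2.34-fold (adjusted p = 0.000713).

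Ndp (norrin), a Frizzled ligand outside the Wnt family, had 0 counts in all 3 controls and 20, 94 and 43 after ablation, at least 13.9-fold higher (adjusted p = 0.0147), but without ablated replicate 2 the bound was 8.17-fold and the threshold was missed (adjusted p = 0.0798), as it was without ablated replicate 3 (0.0565). Vangl2 was the 1 of 12 planar cell polarity genes called (8.33%, a share like the background of 8.48%). It rose (log2 1.40 ± 0.34, adjusted p = 0.0244), and its call too was lost without control replicate 2 (0.102) and without ablated replicate 1 (0.0879), 2 (0.0739) or 3 (0.0798). Cxxc5, a Dishevelled-binding inhibitor, was the 1 of 24 other cytoplasmic and nuclear components that was called (4.17%, under the background). It fell by 0.83 on the log2 scale (SE 0.19, adjusted p = 0.0154), and the call was lost without control replicate 2 (0.0736) or ablated replicate 3 (0.0709). None of the 4 ligand secretion genes was called, among them Porcn (adjusted p = 0.468), which adds the lipid to Wnt proteins, and Wls (adjusted p = 0.323), which carries them to the surface.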

How the data were processed

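RNA was measured in 3 control and 3 Ptch1-ablated libraries of sorted mouse keratocytes, with groups and replicate numbers read from the sample titles. Per the labels, libraries were made with a TruSeq kit, whereas the methods of the study give ribosomal RNA depletion and BGISEQ sequencing, a difference that could not be settled. The authors used Bowtie2 (version 2.2.5) for alignment and RSEM (version 1.2.12) for counts per gene. Their processing notes name build mm9, and strand use was not given in the sources used here, so a member and a gene on its opposite strand cannot be told apart. The deposited table holds RSEM expected counts, which the authors did not normalize (18.6% of them not whole, to within 0.005), TPM, which the authors scaled by transcript length and then to 1000000 in each library, and FPKM, which the authors scaled by length and by library fragments and which were not used here.

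Expected counts were rounded and fitted over all genes with edgeR (version 4.0.16; filterByExpr, TMM, quasi-likelihood test, Benjamini-Hochberg adjustment, two-sided; R 4.3.3), which was tested on simulated counts first. The call used an adjusted p of at most 0.05; the study's added 2-fold minimum was an alternative, as were DESeq2 (version 1.42.0), limma (version 3.58.1) on log2(TPM + 1) and log2(TPM + 0.1), other scalings and filters, a replicate block, a looser threshold and leaving out each library. CPM are counts per 1000000 scaled by TMM. The SE of each edgeR log2 change was derived from the test, as the absolute log2 change over the square root of its F statistic. Folds were given only with 10 counts in 3 libraries, and a group at 0 was set at 3 counts per library, which covers counting error only (0.121 to 0.158 CPM). Values per library are given for each called member and for the 3 members of each role with the highest mean TPM. Other members with adjusted p of at most 0.2 are marked as chosen after their values were seen, and the remaining members are given more briefly. Genes of the pathway outside the members are named where called. Sp5, Ccnd1, Lgr5, Lgr6, Porcn and Wls were not called and are named outside that rule. All 53 members matched RefSeq by identifier and symbol. Promoter windows are from RefSeq (GRCm38.p6), another build than that of the files, and annotation from GENCODE of GRCm38. Motifs were searched on both strands. Protein sequences were not used here. Members, lists and motifs were chosen with earlier results of these data known. Replicates differed beyond counting noise (chi-square per degree of freedom at least 33.8).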

Additional observations from a re-analysis of the deposited data

How the results depend on the processing

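Of the 12 called members, 9 kept their call under every alternative tried. Lef1 and Wnt5a lost it under a 2-fold minimum, and Notum in 4 of the 6 fits that left out a library. No called member reversed. Members higher numbered 7 in the fit reported and from 6 to 10 elsewhere, and members lower 5 and from 4 to 5. Over all genes 1178 were called, 763 with the 2-fold minimum and from 778 (without control replicate 2) to 1015 when a library was left out; DESeq2 called 1736. Among the named genes, signs reversed for 3 members that no alternative called: Ror2 with library totals alone (0.062), on log2(TPM + 1) (0.078), on log2(TPM + 0.1) (0.08) and without ablated replicate 3 (0.048), Tcf7l1 under the first 3 of these (0.043, 0.141, 0.147) and without control replicate 1 (0.141), and Wnt9a without control replicate 1 (-0.047). Leaving out a library, log2 changes ranged from -0.268 to 0.048 for Ror2, from -0.368 to 0.141 for Tcf7l1 and from -0.047 to 0.41 for Wnt9a. The cause was not tested. Depth limits the 10 members that were not tested, each with at most 38 counts in a library.

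Deviations from the group means correlated at -0.02, -0.06 and 0.04 between samples with the same replicate number. Between samples with different numbers they correlated at -0.046 to 0.079. With 3 libraries per group, these values cannot settle whether the replicate numbers pair the samples. With the replicate number as a block 942 genes were called, with 7 members higher and 5 lower, and of the other pathway genes Ndp (adjusted p = 0.0686) and Vangl2 (0.0635) missed the threshold.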
